A study of Mus musculus with 21 samples.

Results

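The genes described here encode the machinery that copies DNA, together with enzymes that supply its nucleotides and the cyclins that start the process. They are the 39 genes of the deposited count table whose symbol is on a list of replication genes, out of 54532 genes in all, and each of the 39 symbols matched 1 locus. By role they fall into origin licensing (10 genes), helicase activation (6), primase and DNA polymerases (8), the sliding clamp and its loader (6), single-strand binding and Okazaki fragment joining (4), nucleotide supply (3) and cyclin E (2). RNA was sequenced from c-kit+ bone marrow cells of C57BL/6 mice, a fraction rich in blood progenitors that was enriched on CD117 magnetic beads after red cell lysis. Of the 11 libraries, 3 were labelled Asxl1-/-Jak2V617F, 3 Jak2V617F, 2 Asxl1-/- and 3 WT. Asxl1 encodes a chromatin regulator that is often mutated in myeloid neoplasms, while the Jak2V617F change makes the cytokine receptor kinase JAK2 active without its ligand and is common in myeloproliferative neoplasms. The labels are the only account of the groups used here, and the age of the mice, the way each allele was made or switched on, and whether libraries came from separate animals are not stated in them. The p-values therefore measure the spread between these libraries, which may be partly technical.

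A replication origin is licensed in G1 phase, when the origin recognition complex, CDC6 and CDT1 load the MCM helicase onto DNA in an inactive form. At the start of S phase CDC45 and the GINS complex join the helicase and it opens the helix, primase lays down primers, and DNA polymerases held by the PCNA clamp copy both strands. Many of these genes are transcribed around the G1 to S transition under E2F transcription factors, and dividing blood progenitors use them heavily.

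Total counts ran from 16198011 to 19196283 per library, and all 39 replication genes passed the filter on low counts, with a lowest count of 338. The first principal component, which held 51.5% of the variance, set the 3 Jak2V617F libraries (98.5 to 105) apart from the other 8 (-47.3 to -17.8). Counts of Asxl1 were 93.5, 95.1 and 100.4 CPM in Asxl1-/-Jak2V617F libraries, 196, 142 and 132 in Jak2V617F, 89.0 and 97.0 in Asxl1-/- and 162, 164 and 161 in WT, so all 5 libraries labelled Asxl1-/- were below the other 6. CPM are read counts scaled to library size after TMM, edgeR's correction for library composition. Counts of Jak2 cannot check the point mutation. Reads from Y-linked genes were present in 3 libraries, namely both Asxl1-/- libraries and Jak2V617F 2, so in Asxl1-/- against WT the genotype and this difference cannot be told apart. Only Jak2V617F had libraries with and without such reads, so a term for them rested on Jak2V617F 2 against Jak2V617F 1 and 3.

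Markers of other blood cells moved with the Jak2V617F libraries, and their part in the results below was not tested. The summed level of 10 granulocyte markers was 40462 to 50069 CPM in Asxl1-/-Jak2V617F libraries, 2549 to 5597 in Jak2V617F, 66720 to 67932 in Asxl1-/- and 44692 to 60100 in WT. All 10 granulocyte genes were lower in Jak2V617F than in WT past the test. Of all genes tested 24.4% rose and 29.2% fell in that comparison. The sum of 12 erythroid markers was 2268 to 3738 CPM in Asxl1-/-Jak2V617F, 6805 to 8315 in Jak2V617F, 2715 to 3128 in Asxl1-/- and 1681 to 3066 in WT, and 11 of the 12 were higher in Jak2V617F than in WT. The sum of 6 dendritic cell markers was 267 to 411 CPM in Asxl1-/-Jak2V617F, 2101 to 2890 in Jak2V617F, 345 to 454 in Asxl1-/- and 205 to 368 in WT. In Jak2V617F against WT 5 of the 6 rose, and the other did not pass, at a log2 fold change of -1.30. The sum of 10 progenitor markers was 1100 to 1409 CPM in Asxl1-/-Jak2V617F, 778 to 866 in Jak2V617F, 1427 to 1485 in Asxl1-/- and 1270 to 1365 in WT. Of these 10, 7 fell and 1 rose in Jak2V617F against WT, and Flt3 is on both this list and the dendritic cell list. The summed markers of each of 7 further cell types were lower in every Jak2V617F library than in any WT library. Monocyte and macrophage markers (8 genes) summed to 3342 to 3631 CPM in Asxl1-/-Jak2V617F, 283 to 746 in Jak2V617F, 7213 to 7626 in Asxl1-/- and 4229 to 6647 in WT, and all 8 fell in Jak2V617F against WT. In the same comparison all 5 eosinophil markers fell (sums of 33.8 to 39.6 CPM in Jak2V617F and 186 to 331 in WT), as did 5 of 6 mast cell and basophil markers (18.4 to 27.7 and 98.2 to 206), 5 of 8 megakaryocyte markers (53.4 to 59.1 and 178 to 218), 4 of 5 tested stroma markers (17.8 to 23.4 and 59.7 to 67.5) and 3 of 8 B lymphoid markers (58.6 to 191 and 260.2 to 378). Of 7 T and NK markers 1 rose and 1 fell (sums of 39.5 to 75.0 and 139 to 164). Their log2 fold changes were positive for 6 and negative for 1, with a median of 0.58, so most of this list did not share the lower sum. The B lymphoid falls were near the share of all genes that fell. The T and NK rises and falls were below the shares of all genes. Over all 11 lists the genes read at 0 in some library were Cd3e, Cxcl12 and Lepr. Kit itself was read at 219 to 338 CPM in every library. In bulk RNA, fewer cells of a type and less RNA per cell cannot be told apart, and neither can more cells in S phase and more replication RNA per cell.

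E2F words, a sequence feature that the choice of genes did not use, stood in a minority of the replication gene promoters, more often than over all promoters. Windows of 300 bases, 250 before and 50 after each RefSeq transcription start (build GRCm38.p6), were on hand for 31 of the 39 genes, as 36 windows. They were searched on both strands for 4 E2F words, TTTCCCGC, TTTGGCGC, TTTCGCGC and TTTGCCGC, with overlapping matches merged into 1 site. At least 1 site was found in 13 of the 36 windows, or 36.1%, against 2.26% of 32851 mouse promoter windows and 1 of 18 windows (5.56%) of mitosis and spindle genes. The member windows had a median GC content of 58.8%, against 58.8% for the mitosis windows and 52.7% for all windows, so GC content was higher in member windows than over all windows, and its part in the word count was not tested. By role, 7 of 9 licensing genes with a window held a site, as did 3 of 6 primase and polymerase genes, 1 of 3 helicase activation genes, 1 of 5 clamp and loader genes, 1 of 4 single-strand binding and joining genes, 0 of 3 nucleotide supply genes and 0 of 1 cyclin E gene. Of the 17 sites, 12 lay between 100 bases before and 50 after the start. The word TTTGAA, which is the core of the CHR element known from promoters of mitotic genes, was in 13.9% of member windows, 66.7% of mitosis windows and 17.9% of all windows. The CCAAT word was in 58.3%, 83.3% and 37.4% of these windows in the same order. A match is a description of letters and shows no binding.

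The 4 members with 2 sites in a window are printed below because they show how the words lie near the start. All are on the minus strand and are printed 5′ to 3′ in the sense of the gene, with the E2F words in capitals and the RefSeq start 50 bases before the end. Mcm3, Mcm6 and Mcm7 encode subunits of the helicase and Rfc3 a subunit of the clamp loader. The windows are at chr1:20820263-20820562, chr1:128359656-128359955, chr5:138171834-138172133 and chr5:151651159-151651458.
Mcm3: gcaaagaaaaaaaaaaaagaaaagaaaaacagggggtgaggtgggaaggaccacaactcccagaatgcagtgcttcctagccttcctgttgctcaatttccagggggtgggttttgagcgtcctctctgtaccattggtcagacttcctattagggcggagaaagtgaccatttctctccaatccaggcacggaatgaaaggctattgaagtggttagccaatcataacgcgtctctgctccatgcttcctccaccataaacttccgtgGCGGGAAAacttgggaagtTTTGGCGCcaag
Mcm6: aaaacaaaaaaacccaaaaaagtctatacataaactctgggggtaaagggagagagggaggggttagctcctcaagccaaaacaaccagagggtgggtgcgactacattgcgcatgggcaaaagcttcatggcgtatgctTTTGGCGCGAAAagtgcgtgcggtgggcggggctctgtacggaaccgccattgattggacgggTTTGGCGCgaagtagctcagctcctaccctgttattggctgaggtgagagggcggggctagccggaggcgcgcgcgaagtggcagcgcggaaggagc
Mcm7: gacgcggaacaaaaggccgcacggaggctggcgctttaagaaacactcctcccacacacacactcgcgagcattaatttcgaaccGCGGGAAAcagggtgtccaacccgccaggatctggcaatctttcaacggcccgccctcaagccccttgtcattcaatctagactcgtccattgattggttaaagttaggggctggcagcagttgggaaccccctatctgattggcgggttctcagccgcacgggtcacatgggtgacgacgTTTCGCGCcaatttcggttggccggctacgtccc
Rfc3: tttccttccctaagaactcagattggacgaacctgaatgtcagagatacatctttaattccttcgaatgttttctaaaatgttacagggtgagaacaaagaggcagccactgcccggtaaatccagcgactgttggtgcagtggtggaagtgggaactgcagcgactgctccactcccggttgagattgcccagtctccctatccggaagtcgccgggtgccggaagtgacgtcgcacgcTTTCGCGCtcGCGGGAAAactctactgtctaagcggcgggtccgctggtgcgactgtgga

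Counting from 1 at the start, the sites of Mcm3 lay at bases 20 to 27 and 39 to 46, both after the start. Those of Rfc3 lay at -10 to -3 and 1 to 8, on either side of the start. Mcm6 had sites at -110 to -99, where words on both strands overlap, and at -47 to -40. Mcm7 had them at -165 to -158 and 17 to 24. All 3 helicase genes rose in Jak2V617F against WT, as given below, whereas Rfc3 did not pass the test (log2 fold change 0.13 ± 0.08, adjusted p = 0.186).

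**Figure D1:**
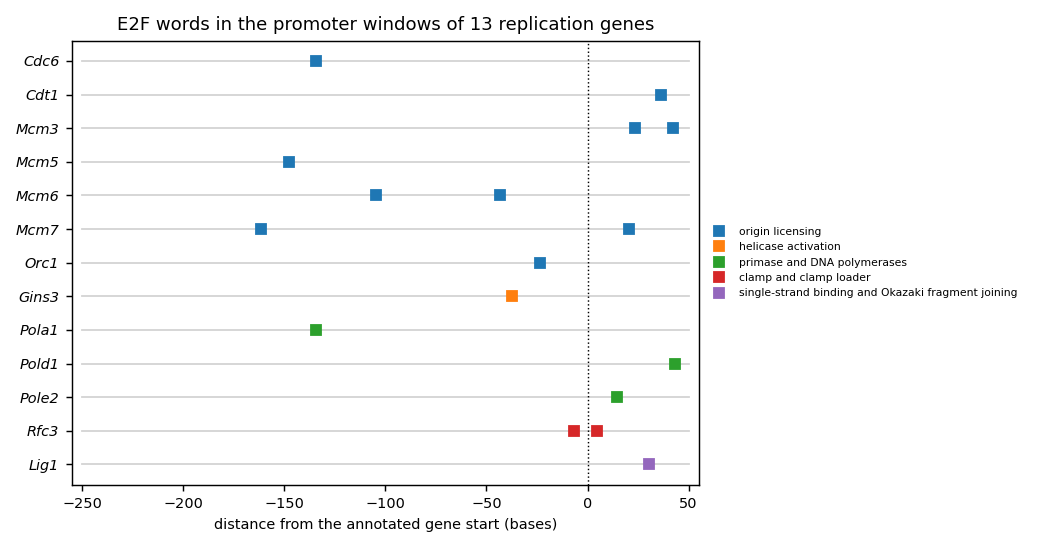
Positions of E2F words in the promoter windows of the 13 replication genes that held one, as bases from the RefSeq start (x axis), 1 gene per line. Of the 17 sites, 12 lie between 100 bases before and 50 after the start.

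Levels per kilobase of gene length differed widely between members while the spread between libraries of a genotype was small. In WT, Pcna, the sliding clamp, was highest at 187 ± 17.00 CPM per kilobase (mean ± SD, n = 3) and Orc1, the largest subunit of the origin recognition complex, was lowest at 7.22 ± 1.05. The 6 subunits of the MCM helicase, which is built from 1 copy of each, did not have equal levels per kilobase in WT. Mcm2 was at 54.3 ± 5.19 and Mcm4 at 73.0 ± 7.43 CPM per kilobase, whereas Mcm3, Mcm5, Mcm6 and Mcm7 had means between 102 and 110.3 CPM per kilobase and SDs that overlapped. The table's gene length counts all annotated exons, so isoforms with long tails lower a level per kilobase. The sum over the 39 genes was 7338, 7349 and 7870 CPM in Asxl1-/-Jak2V617F libraries, 8400, 7929 and 8407 CPM in Jak2V617F, 7380 and 7165 CPM in Asxl1-/-, and 6996, 5993 and 6473 CPM in WT. After this scaling all 3 Jak2V617F libraries had more replication RNA than any other library, and all 3 WT libraries had less. As a share of unscaled counts the 39 genes took 0.705% to 0.780% in Asxl1-/-Jak2V617F, 0.842% to 0.884% in Jak2V617F, 0.661% to 0.675% in Asxl1-/- and 0.624% to 0.715% in WT, so that Jak2V617F was still highest but WT overlapped both genotypes with Asxl1 loss.

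**Figure D2:**
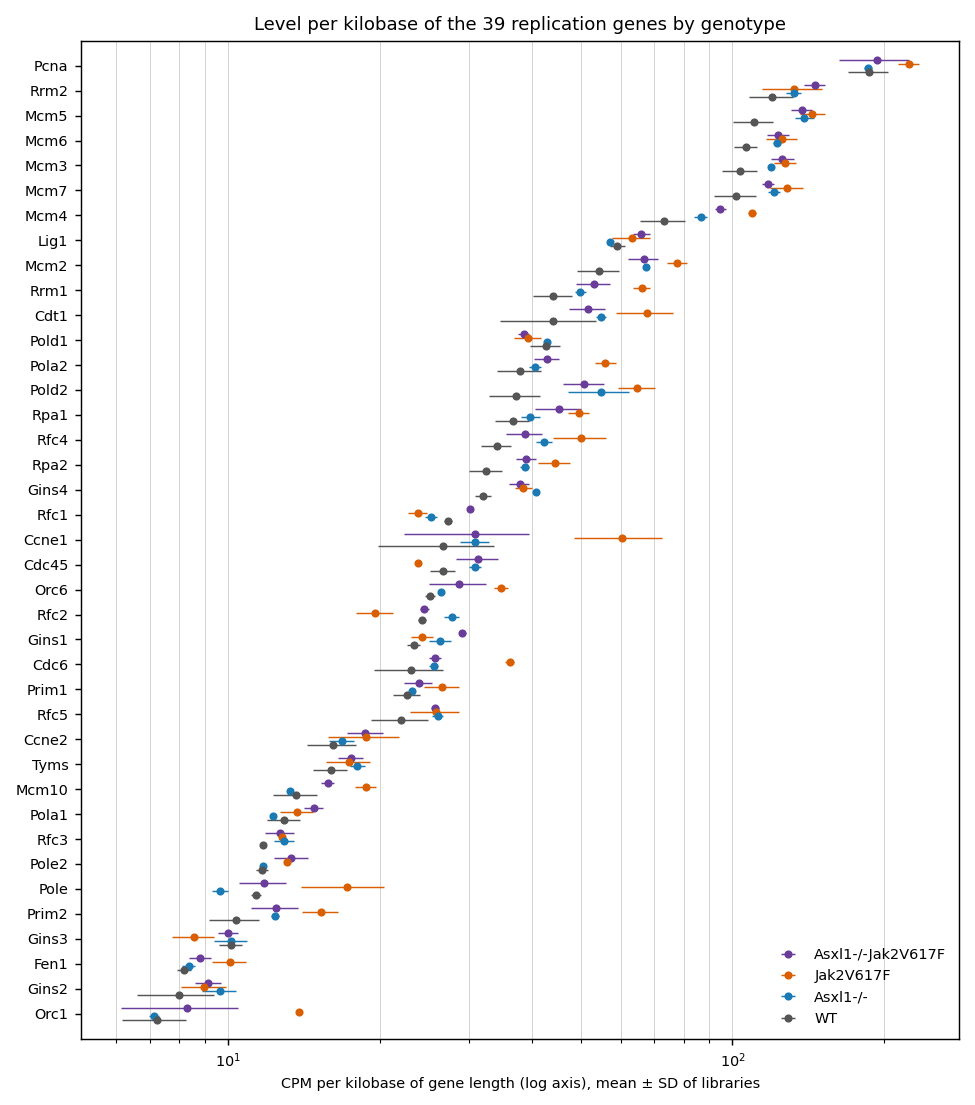
Level of each of the 39 replication genes per kilobase of gene length (log axis), as mean ± SD of the libraries of each genotype. Pcna is the highest in WT and Orc1 the lowest.

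Among genotype means, Jak2V617F was highest for 24 of the 39 genes and WT lowest for 28. The most frequent order, in 14 genes, was Jak2V617F, then Asxl1-/-Jak2V617F, then Asxl1-/-, then WT. The mean of Asxl1-/-Jak2V617F lay between those of Jak2V617F and WT for 28 genes and above WT for 37. Genotype means spanned less than 1.3-fold in 20 genes and 1.5-fold or more in 6. Within WT the libraries differed along the whole set: WT 1 was the highest of the 3 for 26 genes and WT 2 the lowest for 34. Within Asxl1-/-Jak2V617F, library 3 was the highest for 25 genes, and in Jak2V617F, library 2 was the lowest for 25.

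Replication genes were mostly higher in Jak2V617F than in WT, by modest amounts. Of 39 genes, 23 rose (59.0%) and 2 fell (5.13%), while 14 did not pass, at an adjusted p of 0.05 in edgeR's quasi-likelihood test with Benjamini-Hochberg adjustment over all 16262 genes tested. Over all genes, 24.4% rose and 29.2% fell in this comparison, or 53.5% in either direction. The median log2 fold change was 0.30 for the members and -0.05 for all genes tested, and 26 members had every Jak2V617F library above every WT library (27.7% of all genes did), while 4 had every library below (33.3%). All 10 licensing genes rose, with a median of 0.49, as did 5 of 8 primase and polymerase genes, 3 of 4 single-strand binding and joining genes, 2 of 6 helicase activation genes, 1 of 3 nucleotide supply genes, 1 of 6 clamp and loader genes and 1 of 2 cyclin E genes. The 2 that fell, Rfc1 and Rfc2, are both subunits of the clamp loader, and the call for Rfc1 was lost in several other settings given below. Ccne1 was the only member to change by 2-fold or more. Without WT 1 the count was 27 rises and without WT 3 it was 19, and without Jak2V617F 2, which leaves no library with Y-linked reads in the comparison, it was 25 rises and 1 fall.

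In Asxl1-/-Jak2V617F against Jak2V617F the replication genes went both ways, with more falls than rises. Of 39 genes, 12 fell (30.8%) and 4 rose (10.3%), and 23 did not pass. Over all genes, 24.5% rose and 19.8% fell, or 44.3% in either direction. The median log2 fold change was -0.12 for the members and -0.01 for all genes, with 15 members lower in every Asxl1-/-Jak2V617F library than in any Jak2V617F library (25.5% of all genes) and 5 higher (28.4%). The falls were 4 licensing genes (Orc1, Orc6, Cdc6, Cdt1), 4 primase and polymerase genes (Pola2, Prim2, Pold2, Pole), Mcm10, Rfc4, Rrm1 and Ccne1. The rises were Cdc45 and Gins1, which belong to the active helicase, and Rfc1 and Rfc2. None of the 6 subunits Mcm2 to Mcm7 passed, with log2 values between -0.22 and -0.02. The split depends on scaling: with library totals alone it was 3 rises and 19 falls, and with upper-quartile scaling 2 and 20, while the median of all genes moved to -0.12 and -0.14. Relative to that median the members stood at -0.12 under each of the 4 scalings. This is no check of the shift, because a scaling factor moves all genes of a comparison by nearly the same amount. Without Asxl1-/-Jak2V617F 1 there were 6 falls, without Asxl1-/-Jak2V617F 2 or Jak2V617F 3 there were 7.

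For 16 of the 39 replication genes the effect of Asxl1 loss differed between the Jak2V617F and WT backgrounds, a share near that of all genes. In the interaction, which subtracts the log2 fold change of Asxl1-/- against WT from that of Asxl1-/-Jak2V617F against Jak2V617F, 15 of 39 members were lower (38.5%) and 1 was higher (2.56%). Over all genes 17.9% were lower and 23.7% higher, or 41.6% in either direction, and the medians were -0.24 for the members and 0.10 for all genes. The member with the smallest p was Pold2 (-0.91 ± 0.17, adjusted p = 0.00157), and the single higher one was Rfc1 (0.46 ± 0.09, adjusted p = 0.00306). Without Asxl1-/- 1 there were 6 lower members, without Asxl1-/- 2 there were 8, and with Y-linked reads as a term 5 were lower and 0 higher, with Rfc1 at 0.31 (adjusted p = 0.179).

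In Asxl1-/- against WT 4 of 39 members rose (10.3%) and 0 fell, against 11.3% of all genes that rose and 11.2% that fell (22.5% in all), so the share of rises was near that of all genes. The 4 were Mcm2, Mcm5, Gins4 and Pold2. The median was 0.17 for the members and -0.01 for all genes, and 13 members had an unadjusted p under 0.05 upward and 0 downward. At that unadjusted threshold 18.5% of all genes were higher and 18.7% lower. The count rested on single libraries, since it was 0 without Asxl1-/- 1 and 15 without WT 1, and it was 0 with Y-linked reads as a term. With library totals alone it became 1 rise and 1 fall, and the median of all genes moved to -0.17 and that of the members to 0.01. The distance of 0.18 between these medians was the same under each of the 4 scalings. That is no check of the shift, because a scaling factor moves all genes of a comparison by nearly the same amount.

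In Asxl1-/-Jak2V617F against WT 8 members rose (20.5%) and 0 fell, against 8.3% of all genes that rose and 6.76% that fell (15.1% in all). The median was 0.21 for the members and -0.02 for all genes. The 8 were Mcm2, Mcm3, Mcm4, Mcm5, Gins1, Pold2, Rpa1 and Rpa2. This count was 20 without WT 1, and 0 without WT 2 or without WT 3, so each of the calls depended on which WT libraries entered. It also fell to 2 without Asxl1-/-Jak2V617F 1, to 1 without Asxl1-/-Jak2V617F 2 and to 4 without Asxl1-/-Jak2V617F 3. Between Asxl1-/-Jak2V617F and Asxl1-/- 0 members passed in edgeR's test in either direction, against 3.31% of all genes higher and 2.22% lower, or 5.53% in all. At an unadjusted p under 0.05 there were 4 members higher and 1 lower, against 11.6% of all genes higher and 10.1% lower. DESeq2 called 1 member higher. The comparisons against WT share the WT libraries, and those with Jak2V617F share the Jak2V617F libraries, so their values for a gene are given side by side below and not as separate evidence.

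**Figure D3:**
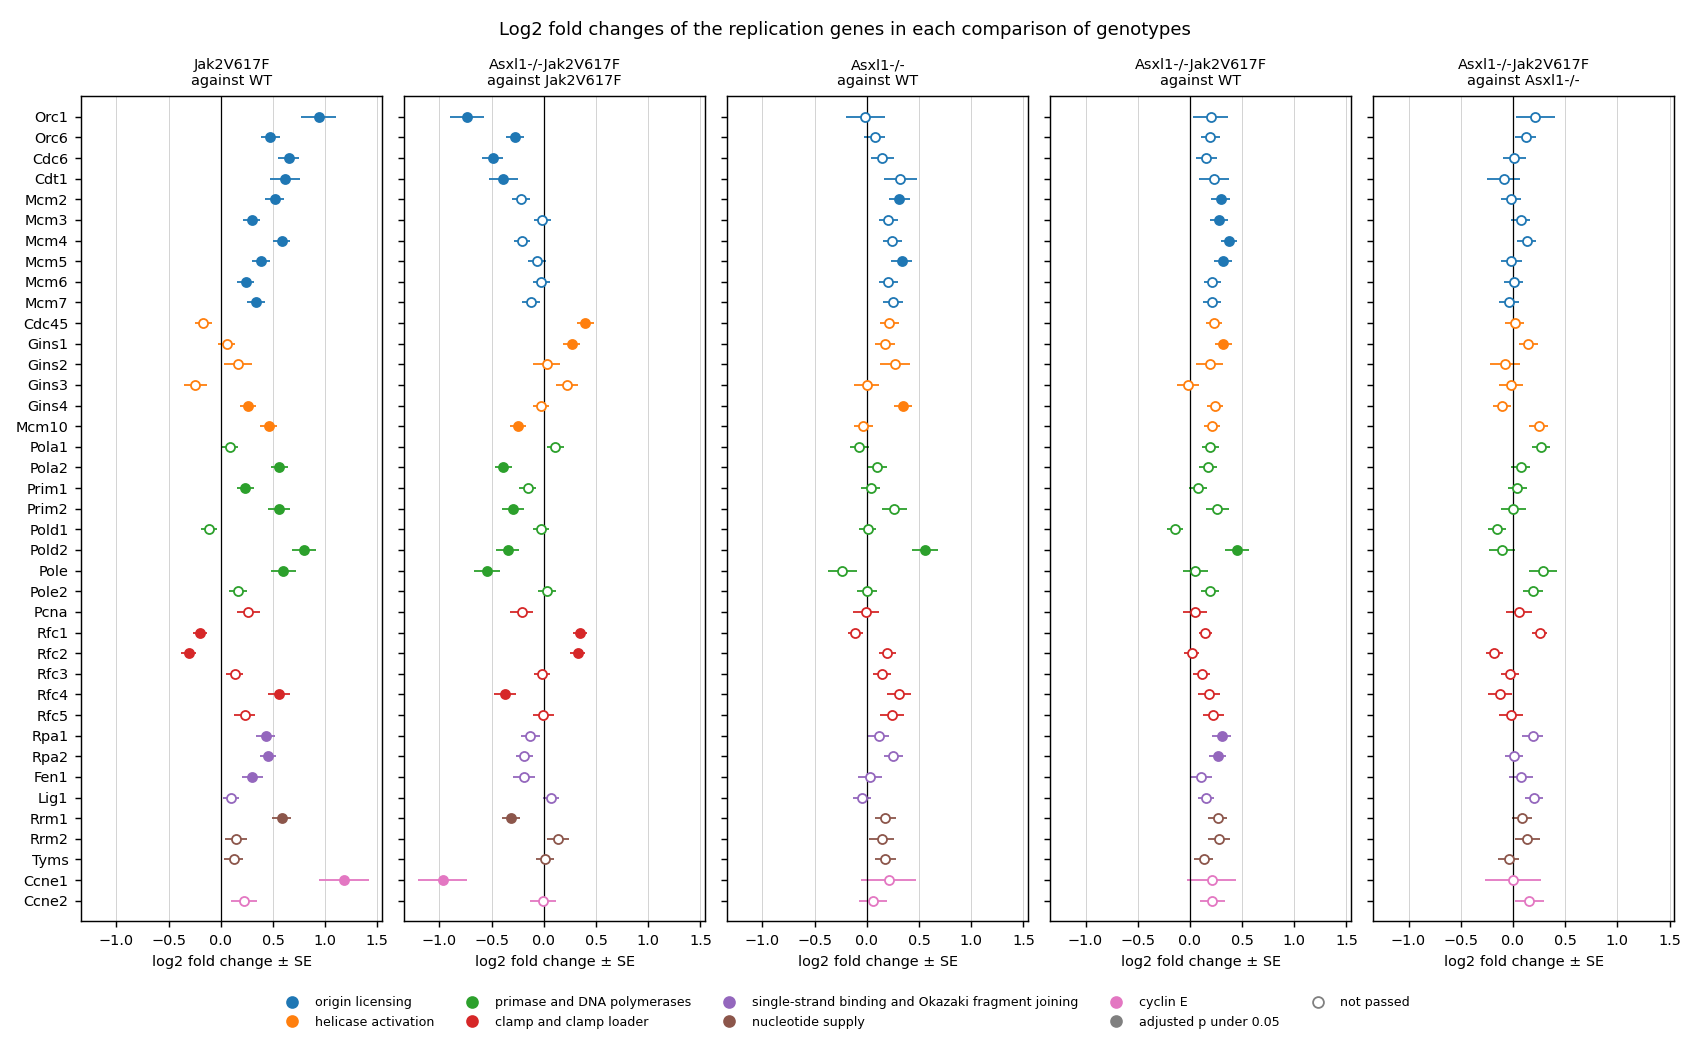
Log2 fold changes of the 39 replication genes in the comparisons of the study, grouped by role, as estimate ± standard error. In Jak2V617F against WT 23 genes lie above 0 past the test and 2 below, and in Asxl1-/-Jak2V617F against Jak2V617F 4 lie above and 12 below.

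Every licensing gene rose in Jak2V617F against WT. Orc1 (chr4:108579423-108614833) was read at 26.8, 22.6 and 37.1 CPM in Asxl1-/-Jak2V617F libraries, 48.0, 48.3 and 47.8 CPM in Jak2V617F libraries, 25.3 and 24.5 CPM in Asxl1-/- libraries and 28.6, 21.4 and 25.3 CPM in WT libraries. The 3 Jak2V617F values were nearly equal and above all others, and the Asxl1-/-Jak2V617F libraries reached WT levels except for library 3. Orc1 rose in Jak2V617F against WT (0.94 ± 0.16, adjusted p = 0.000526) and fell in Asxl1-/-Jak2V617F against Jak2V617F (-0.74 ± 0.16, adjusted p = 0.00337), where values are log2 fold changes ± standard error, here and below. Cdc6, the ATPase that helps to load the helicase, is at chr11:98907801-98923940 and was at 138, 136 and 131 CPM in Asxl1-/-Jak2V617F libraries, 192, 184 and 191 CPM in Jak2V617F libraries, 135 and 132 CPM in Asxl1-/- libraries and 139, 101.2 and 122 CPM in WT libraries. Here too the Jak2V617F libraries stood above the other 8, which overlapped, with log2 fold changes of 0.65 ± 0.10 in Jak2V617F against WT (adjusted p = 0.000183) and -0.49 ± 0.10 in Asxl1-/-Jak2V617F against Jak2V617F (adjusted p = 0.00172). Mcm4, a helicase subunit, was at 337, 333 and 349 CPM in Asxl1-/-Jak2V617F libraries, 397, 384 and 396 CPM in Jak2V617F libraries, 317 and 304 CPM in Asxl1-/- libraries and 291, 238 and 258 CPM in WT libraries. No 2 genotypes overlapped, and the order ran Jak2V617F, Asxl1-/-Jak2V617F, Asxl1-/-, WT. Mcm4 rose in Jak2V617F against WT (0.58 ± 0.08, adjusted p = 9.61e-05) and in Asxl1-/-Jak2V617F against WT (0.37 ± 0.08, adjusted p = 0.0152), the second of which was lost without WT 2 or WT 3 (highest adjusted p = 0.059). Its value in Asxl1-/-Jak2V617F against Jak2V617F did not pass (-0.21 ± 0.08, adjusted p = 0.0525).

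The rest of the licensing group rose in Jak2V617F against WT by log2 values of 0.24 (Mcm6) to 0.62 (Cdt1, the loading factor that geminin inhibits). Mcm2 (0.52 ± 0.09), Mcm5 (0.38 ± 0.09), Mcm7 (0.34 ± 0.09) and Mcm3 (0.30 ± 0.08) lay between them, as did Orc6 (0.47 ± 0.09), the smallest origin recognition subunit. The call for Mcm6 was lost without Jak2V617F 1, Jak2V617F 3, WT 2 or WT 3 (highest adjusted p = 0.0912). In Asxl1-/-Jak2V617F against Jak2V617F, Orc6 (-0.28 ± 0.09, adjusted p = 0.0248) and Cdt1 (-0.39 ± 0.14, adjusted p = 0.044) fell. Orc6 lost that call without Asxl1-/-Jak2V617F 1, Asxl1-/-Jak2V617F 2 or Jak2V617F 3 (highest adjusted p = 0.0936), and Cdt1 lost it without any 1 of the 6 libraries other than Jak2V617F 2 (highest adjusted p = 0.153). Reads of Orc6 and Mcm7 are uncertain, because each overlaps a protein-coding gene with counts over 10% of its own and no source here gives the strand setting of the counting. Those genes are Vps35, at 278% of the counts of Orc6, and Cops6, at 20.1% of those of Mcm7.

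Helicase activation genes split. Cdc45, which joins the MCM ring to make it unwind DNA, was at 121, 107 and 100.7 CPM in Asxl1-/-Jak2V617F libraries, 82.2, 83.8 and 83.8 CPM in Jak2V617F libraries, 110.5 and 106 CPM in Asxl1-/- libraries and 99.4, 89.8 and 91.2 CPM in WT libraries. All Jak2V617F values lay below all others, and those of Asxl1-/-Jak2V617F above all Jak2V617F and WT values. Cdc45 rose in Asxl1-/-Jak2V617F against Jak2V617F (0.40 ± 0.08, adjusted p = 0.00184), while Jak2V617F against WT did not pass (-0.17 ± 0.08, adjusted p = 0.101). Mcm10, which helps the helicase to start, was at 117, 122 and 124 CPM in Asxl1-/-Jak2V617F libraries, 146, 136 and 149 CPM in Jak2V617F libraries, 102 and 102 CPM in Asxl1-/- libraries and 105, 93.9 and 115 CPM in WT libraries. It moved the other way: the Jak2V617F libraries were above all others (0.46 ± 0.08, adjusted p = 0.000511 against WT), and Asxl1-/-Jak2V617F fell against Jak2V617F (-0.25 ± 0.08, adjusted p = 0.0258), a call lost without Asxl1-/-Jak2V617F 1 or 2 or Jak2V617F 1 or 3 (highest adjusted p = 0.0786). Gins4, a GINS subunit, was at 49.9, 49.5 and 53.7 CPM in Asxl1-/-Jak2V617F libraries, 53.6, 49.7 and 52.4 CPM in Jak2V617F libraries, 55.4 and 54.5 CPM in Asxl1-/- libraries and 44.1, 44.1 and 41.5 CPM in WT libraries, and WT was below all the other libraries. It rose in Jak2V617F against WT (0.26 ± 0.08, adjusted p = 0.0126; adjusted p = 0.0528 without WT 3) and in Asxl1-/- against WT (0.35 ± 0.09, adjusted p = 0.016; highest adjusted p = 0.126 without 1 library). Among the other GINS subunits Gins1 rose in Asxl1-/-Jak2V617F against Jak2V617F (0.27 ± 0.08, adjusted p = 0.0213; highest adjusted p = 0.076 without 1 library), Gins2 did not pass (0.03 ± 0.13) and neither did Gins3 (0.22 ± 0.11). Gins1 also lost its call with library totals alone (0.15, adjusted p = 0.142) and upper-quartile scaling (0.13, adjusted p = 0.196). The same held with no filter and with Y-linked reads as a term. Cdc45 and Gins2 each overlap a protein-coding gene with counts over 10% of their own (Ufd1, at 65.3% of Cdc45, and Gse1, at 315% of Gins2) and are uncertain for that reason.

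The primase and polymerase genes included Pold2, the member with the smallest p in the interaction. This gene (chr11:5872180-5878292), the accessory subunit of polymerase delta, was at 87.7, 96.2 and 106 CPM in Asxl1-/-Jak2V617F libraries, 118, 116 and 135 CPM in Jak2V617F libraries, 114 and 93.7 CPM in Asxl1-/- libraries and 78.4, 62.4 and 70.8 CPM in WT libraries. WT was lowest and Jak2V617F highest without overlap, and the double genotype lay between. Pold2 rose in Jak2V617F against WT (0.80 ± 0.11, adjusted p = 0.000112), in Asxl1-/- against WT (0.56 ± 0.12, adjusted p = 0.0105; adjusted p = 0.135 without Asxl1-/- 1) and in Asxl1-/-Jak2V617F against WT (0.45 ± 0.11, adjusted p = 0.0243; highest adjusted p = 0.096 without 1 library). It fell in Asxl1-/-Jak2V617F against Jak2V617F (-0.35 ± 0.11, adjusted p = 0.025; highest adjusted p = 0.0905 without 1 library). Pola2, the subunit that joins primase to polymerase alpha, was at 117, 122 and 130.2 CPM in Asxl1-/-Jak2V617F libraries, 165, 152 and 166 CPM in Jak2V617F libraries, 119.1 and 114 CPM in Asxl1-/- libraries and 120.3, 98.9 and 108 CPM in WT libraries. Only the Jak2V617F libraries stood apart, at 0.56 ± 0.08 against WT (adjusted p = 0.00017), and Asxl1-/-Jak2V617F was below them at -0.39 ± 0.08 (adjusted p = 0.00285). Pole, the catalytic subunit of the leading strand polymerase epsilon, was at 119.4, 128 and 147 CPM in Asxl1-/-Jak2V617F libraries, 229, 157 and 189.9 CPM in Jak2V617F libraries, 105 and 110.3 CPM in Asxl1-/- libraries and 128, 124 and 129 CPM in WT libraries. Its 3 Jak2V617F values were spread more widely than those of any other genotype, and every one lay above the other 8 libraries (0.60 ± 0.12, adjusted p = 0.00143 against WT). Asxl1-/-Jak2V617F fell against Jak2V617F (-0.55 ± 0.12, adjusted p = 0.00346).

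Of the other 5 in this group, the primase subunits Prim1 (0.23 ± 0.08, adjusted p = 0.0325) and Prim2 (0.56 ± 0.11, adjusted p = 0.000912) rose in Jak2V617F against WT, the first losing the call without Jak2V617F 1, WT 2 or WT 3 (highest adjusted p = 0.104). Prim2 fell in Asxl1-/-Jak2V617F against Jak2V617F (-0.30 ± 0.11, adjusted p = 0.0403; highest adjusted p = 0.142 without 1 library). The catalytic subunits Pola1 (0.09 ± 0.08) and Pold1 (-0.12 ± 0.07) and the epsilon subunit Pole2 (0.16 ± 0.09) did not pass in Jak2V617F against WT. For Pold1 the order of means differed from most members, with Asxl1-/- and WT above Jak2V617F and Asxl1-/-Jak2V617F.

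**Figure D4:**
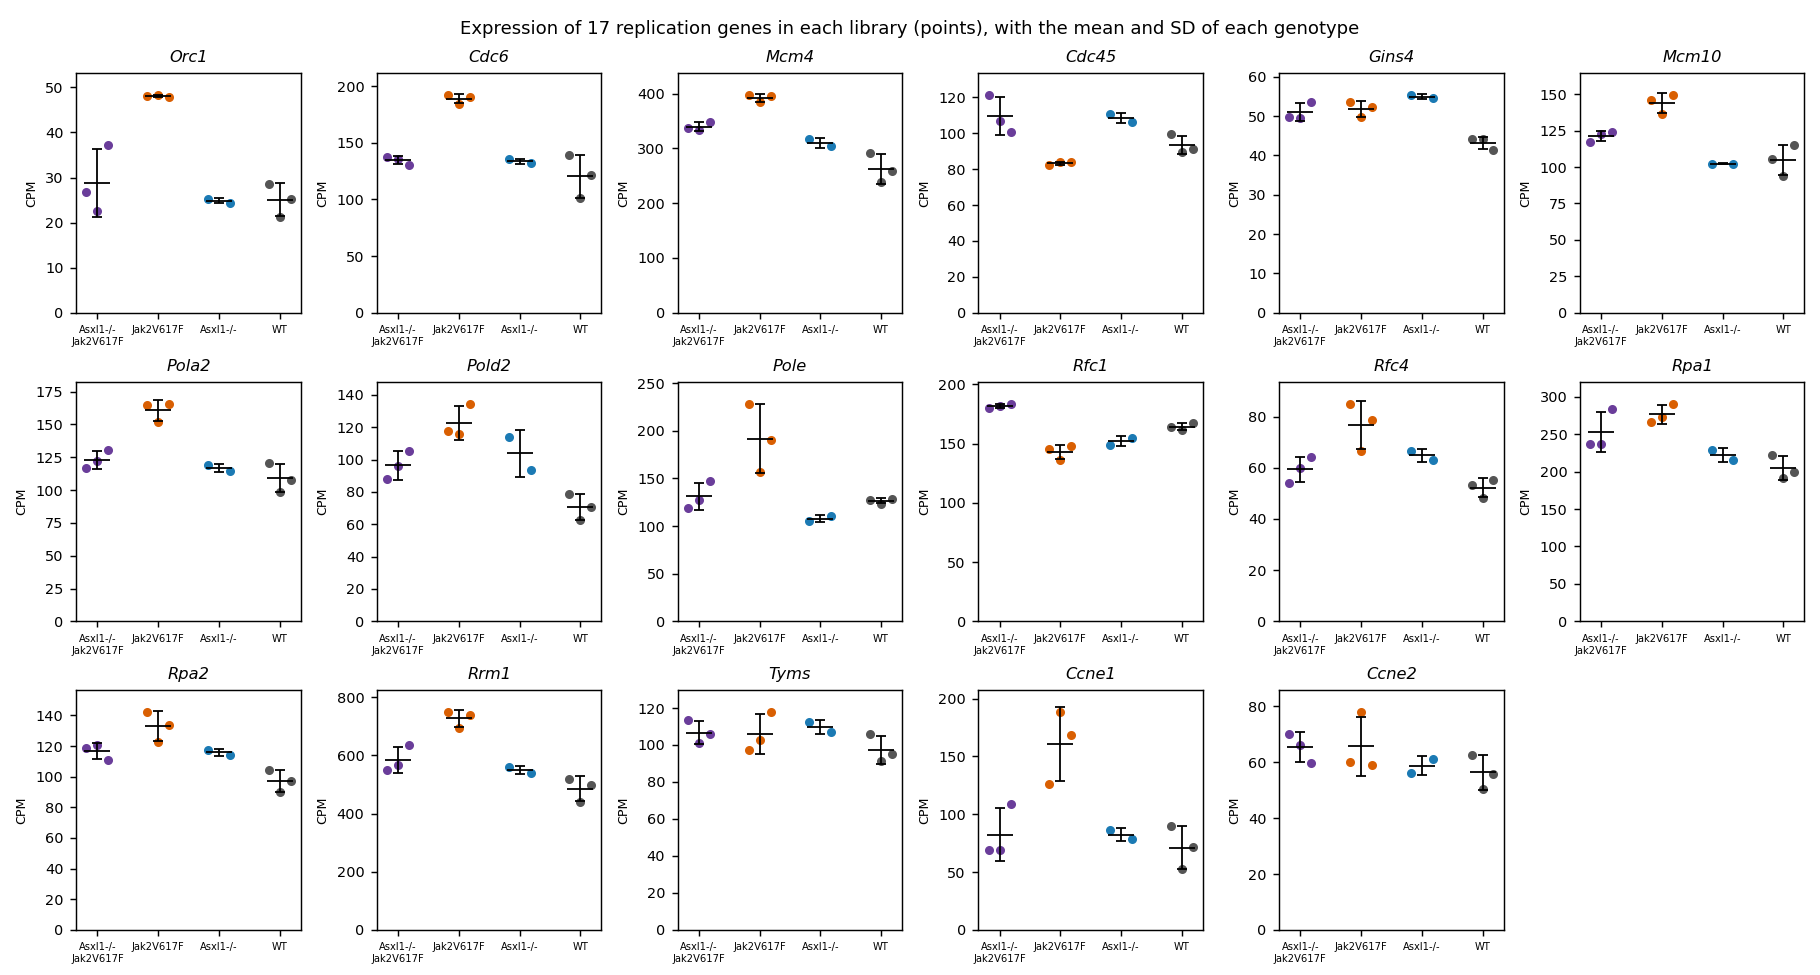
CPM of 17 replication genes in each of the 11 libraries (points), with the mean and SD of each genotype, from a baseline of 0. The 3 Jak2V617F libraries lie above the WT libraries for Orc1, Cdc6, Mcm4, Gins4, Mcm10, Pola2, Pold2, Pole, Rfc4, Rpa1, Rpa2, Rrm1 and Ccne1, and below them for Cdc45 and Rfc1.

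In the clamp and loader group single subunits moved in opposite directions. Rfc1 (chr5:65261850-65335670), the large subunit that loads PCNA, was at 179.7, 182 and 184 CPM in Asxl1-/-Jak2V617F libraries, 145, 136 and 148 CPM in Jak2V617F libraries, 149 and 155 CPM in Asxl1-/- libraries and 164, 161 and 167 CPM in WT libraries. Every Asxl1-/-Jak2V617F library was above every other library, and every Jak2V617F library was below every other. Relative to Jak2V617F it rose in Asxl1-/-Jak2V617F (0.35 ± 0.06, adjusted p = 0.000941), and it fell in Jak2V617F against WT (-0.20 ± 0.06, adjusted p = 0.019), the second call being lost without Jak2V617F 2, WT 1 or WT 3 (highest adjusted p = 0.184). The fall was also not called under median-of-ratios scaling, upper-quartile scaling, no filter or DESeq2. Neither was it with Y-linked reads as a term or in a fit of the compared groups alone (adjusted p of 0.0621 to 0.115 over these settings). Rfc4, a small subunit of the same complex, was at 54.2, 60.0 and 64.1 CPM in Asxl1-/-Jak2V617F libraries, 85.1, 66.7 and 78.8 CPM in Jak2V617F libraries, 66.5 and 63.1 CPM in Asxl1-/- libraries and 53.4, 48.2 and 55.1 CPM in WT libraries. Its Jak2V617F libraries lay above all the others, so that Rfc4 rose in Jak2V617F against WT (0.56 ± 0.10, adjusted p = 0.000799). It fell in Asxl1-/-Jak2V617F against Jak2V617F (-0.37 ± 0.10, adjusted p = 0.0124), a call lost without Asxl1-/-Jak2V617F 1 (adjusted p = 0.0522). Rfc2, another small subunit, also fell in Jak2V617F against WT (-0.31 ± 0.07, adjusted p = 0.00371) and rose in Asxl1-/-Jak2V617F against Jak2V617F (0.32 ± 0.07, adjusted p = 0.00349). Rfc3 (0.13 ± 0.08), Rfc5 (0.23 ± 0.10) and Pcna (0.26 ± 0.11, adjusted p = 0.0652) did not pass in Jak2V617F against WT. Rfc4 and Rfc5 overlap other protein-coding genes with counts over 10% of their own (Eif4a2, at 584% of Rfc4, and Wsb2, at 29.5% of Rfc5), so their counts are uncertain.

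Among genes for single-strand DNA binding and joining, Rpa1, the large subunit of replication protein A, was at 238, 237 and 284 CPM in Asxl1-/-Jak2V617F libraries, 266, 272 and 291 CPM in Jak2V617F libraries, 228 and 215 CPM in Asxl1-/- libraries and 223, 192 and 200 CPM in WT libraries. Its Jak2V617F and Asxl1-/-Jak2V617F libraries lay above WT, and these 2 genotypes overlapped. Rpa1 rose in Jak2V617F against WT (0.43 ± 0.09, adjusted p = 0.00175) and in Asxl1-/-Jak2V617F against WT (0.30 ± 0.09, adjusted p = 0.0441; highest adjusted p = 0.148 without 1 library). Rpa2, the middle subunit, was at 118.9, 121 and 111 CPM in Asxl1-/-Jak2V617F libraries, 142, 123 and 134 CPM in Jak2V617F libraries, 118 and 114 CPM in Asxl1-/- libraries and 104, 90.2 and 97.1 CPM in WT libraries. WT was the lowest genotype with no overlap, and Rpa2 rose in Jak2V617F against WT (0.45 ± 0.08, adjusted p = 0.000592) and in Asxl1-/-Jak2V617F against WT (0.27 ± 0.08, adjusted p = 0.0476; highest adjusted p = 0.165 without 1 library). Fen1, the flap nuclease that trims Okazaki fragments, rose in Jak2V617F against WT (0.30 ± 0.10, adjusted p = 0.028), a call lost without Jak2V617F 3, WT 2 or WT 3 (highest adjusted p = 0.0872), and it overlaps a protein-coding gene with counts over 10% of its own (Tmem258, at 237%). Lig1, which seals the fragments, did not pass (0.09 ± 0.08, adjusted p = 0.327).

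For nucleotide supply, Rrm1, the large subunit of ribonucleotide reductase, was at 552, 566 and 635 CPM in Asxl1-/-Jak2V617F libraries, 749, 696 and 738 CPM in Jak2V617F libraries, 559 and 541 CPM in Asxl1-/- libraries and 520.3, 439 and 500.1 CPM in WT libraries. Jak2V617F stood above all others and WT below all others. Rrm1 rose in Jak2V617F against WT (0.58 ± 0.09, adjusted p = 0.000195) and fell in Asxl1-/-Jak2V617F against Jak2V617F (-0.32 ± 0.09, adjusted p = 0.0125). Its partner Rrm2, the small subunit, did not pass in Jak2V617F against WT (0.14 ± 0.11, adjusted p = 0.28), and Tyms, thymidylate synthase, was at 113, 101 and 106 CPM in Asxl1-/-Jak2V617F libraries, 97.4, 103 and 118 CPM in Jak2V617F libraries, 112 and 107 CPM in Asxl1-/- libraries and 106, 91.2 and 94.9 CPM in WT libraries with overlap between Jak2V617F and WT (0.12 ± 0.09, adjusted p = 0.273).

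Ccne1 (chr7:38097984-38107534), the cyclin E that activates CDK2 at the start of S phase, was at 69.2, 68.9 and 109 CPM in Asxl1-/-Jak2V617F libraries, 126, 188 and 169 CPM in Jak2V617F libraries, 86.1 and 78.3 CPM in Asxl1-/- libraries and 89.5, 52.6 and 71.4 CPM in WT libraries. Every Jak2V617F library was above every other library, but they ranged widely, and Asxl1-/-Jak2V617F 3 was well above the other Asxl1-/-Jak2V617F libraries. Ccne1 rose in Jak2V617F against WT (1.18 ± 0.24, adjusted p = 0.00213; 2.26-fold) and fell in Asxl1-/-Jak2V617F against Jak2V617F (-0.97 ± 0.24, adjusted p = 0.008). Ccne2, its paralogue, was at 70.3, 66.2 and 59.7 CPM in Asxl1-/-Jak2V617F libraries, 60.1, 77.99 and 59.0 CPM in Jak2V617F libraries, 56.3 and 61.2 CPM in Asxl1-/- libraries and 62.7, 50.4 and 56.0 CPM in WT libraries. The 4 genotypes of Ccne2 overlapped, and it did not pass in Jak2V617F against WT (0.22 ± 0.12, adjusted p = 0.149) or in Asxl1-/-Jak2V617F against Jak2V617F (-0.01 ± 0.12, adjusted p = 0.971), with the limit that it overlaps a protein-coding gene with counts over 10% of its own (Ints8, at 115%).

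The summed CPM of each role group show the same order at different sizes. Relative to the WT mean, licensing genes summed to 1.201 in Asxl1-/-Jak2V617F, 1.33 in Jak2V617F and 1.19 in Asxl1-/-. Cyclin E genes summed to 1.158 in Asxl1-/-Jak2V617F, 1.78 in Jak2V617F and 1.11 in Asxl1-/-, and the clamp and loader to 1.07 in Asxl1-/-Jak2V617F, 1.09 in Jak2V617F and 1.04 in Asxl1-/-. Helicase activation was the exception in rank, at 1.159 in Asxl1-/-Jak2V617F, 1.12 in Jak2V617F and 1.10 in Asxl1-/-. The 20 mitosis and spindle genes, which act later in the cell cycle, summed to 0.979 in Asxl1-/-Jak2V617F, 0.974 in Jak2V617F and 0.877 in Asxl1-/-. In Jak2V617F against WT 4 of those 20 rose and 6 fell, with a median of -0.03, near the shares of all genes (24.4% rose and 29.2% fell). In Asxl1-/-Jak2V617F against Jak2V617F 7 rose and 1 fell, with a median of 0.10, where 24.5% of all genes rose and 19.8% fell. The difference between the mitosis and replication lists was not tested.

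**Figure D5:**
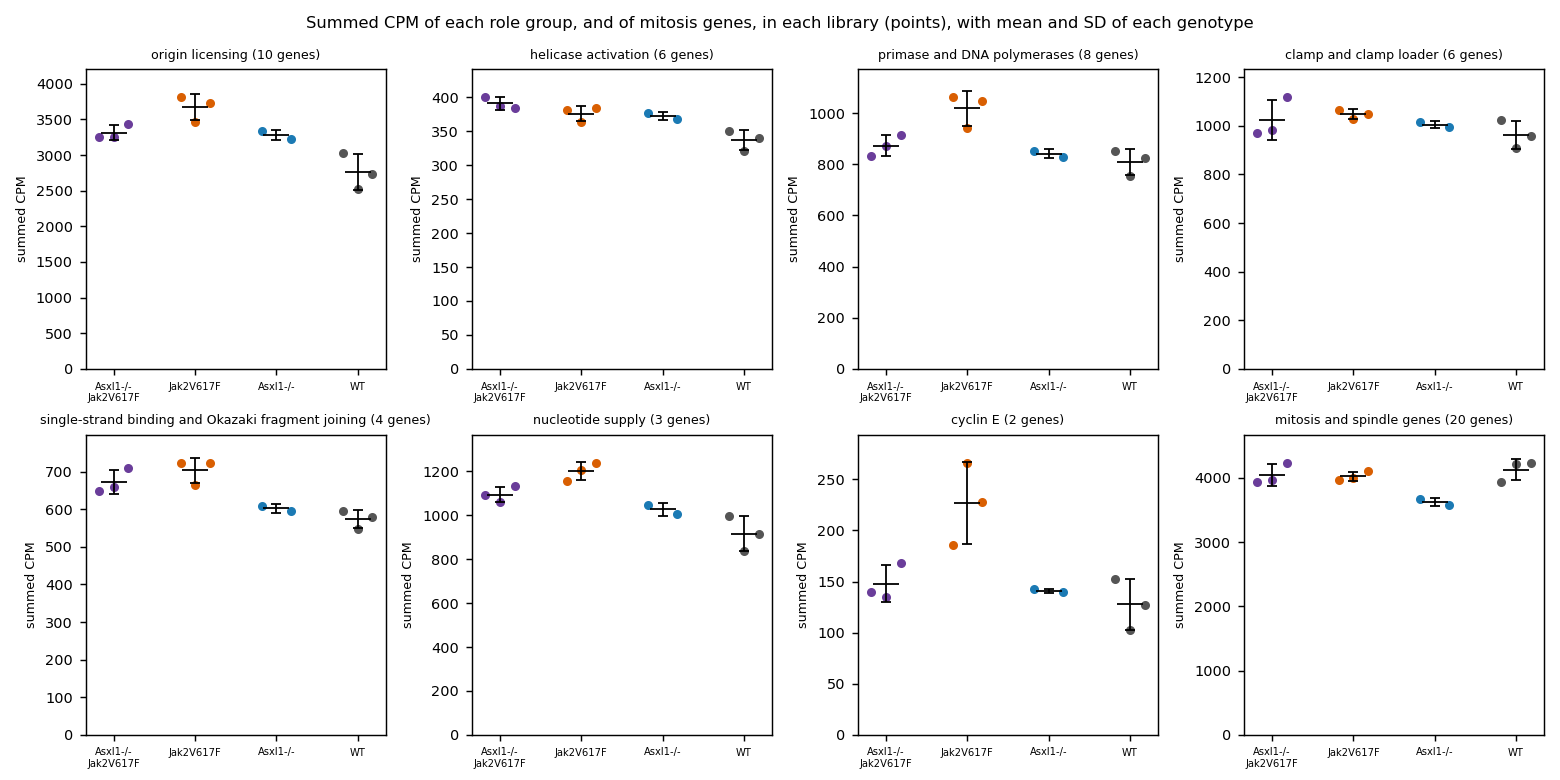
Summed CPM of each role group and of 20 mitosis and spindle genes in each library (points), with the mean and SD of each genotype, from a baseline of 0. The licensing, polymerase, nucleotide and cyclin E sums are highest in Jak2V617F, whereas the mitosis sum is not.

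Other genes of the same pathway, from lists that held no member, gave a mixed picture in Jak2V617F against WT. Of 27 further replisome genes 12 rose and 3 fell, led by Chaf1b (0.70 ± 0.10), a subunit of the histone chaperone that follows the fork, Orc5 (1.21 ± 0.17), an origin recognition subunit, and Pole3 (0.69 ± 0.10), a small polymerase epsilon subunit, with Ctc1 (-0.62 ± 0.10), of the telomeric CST complex, among the falls. Of 11 firing kinases and regulators 5 rose and 2 fell. Recql4 (1.003 ± 0.11), a helicase needed for initiation, and Ccna2 (0.38 ± 0.08), cyclin A, rose, while the kinases Cdk2 (-0.80 ± 0.09) and Cdc7 (-0.45 ± 0.07), which fire origins, fell. Of 18 other nucleotide synthesis genes 12 rose and 2 fell, with a median of 0.48. They were led by Cad (1.29 ± 0.12), which starts pyrimidine synthesis, Shmt2 (1.22 ± 0.13), which feeds one-carbon units, and the purine enzymes Atic (0.90 ± 0.10) and Gart (0.83 ± 0.10).

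Regulators of the G1 to S step went both ways in the same comparison. Of 13 E2F and Rb family genes 4 rose and 5 fell, with a median of -0.13. E2f4 (1.13 ± 0.12), a mainly repressive E2F, and Tfdp2 (0.98 ± 0.14), a dimer partner, rose, while the atypical repressors E2f7 (-1.06 ± 0.16) and E2f8 (-0.53 ± 0.08) fell. Of 12 tested G1 cyclins, kinases and inhibitors 5 rose and 4 fell. The CDK4/6 inhibitors Cdkn2d (-2.02 ± 0.17) and Cdkn2c (-0.76 ± 0.12) fell, as did cyclin D3, Ccnd3 (-1.06 ± 0.13), while cyclin D2, Ccnd2 (0.50 ± 0.09), rose. In the mitosis list Kif23 (-0.85 ± 0.09), Nusap1 (-0.57 ± 0.07) and Kif11 (-0.38 ± 0.08), which build the spindle or midbody, fell and Ccnb1 (0.37 ± 0.10), cyclin B1, rose. The background shares for this comparison were 24.4% of genes higher and 29.2% lower.

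In Asxl1-/-Jak2V617F against Jak2V617F, where 24.5% of all genes rose and 19.8% fell, 4 of the 27 further replisome genes rose and 8 fell, with Orc5 (-0.92 ± 0.17) and Chaf1b (-0.42 ± 0.10) among the falls and Ctc1 (0.49 ± 0.10) and Pold4 (0.68 ± 0.14), a polymerase delta subunit, among the rises. Of the firing genes 3 rose and 3 fell, with Recql4 (-1.13 ± 0.11) and Donson (-0.57 ± 0.10) falling and Cdk2 (0.51 ± 0.09) and the CDK phosphatase Cdc25a (0.37 ± 0.08) rising. Of 18 nucleotide synthesis genes 8 fell, such as Cad (-0.73 ± 0.12), Dut (-0.59 ± 0.15) and Gart (-0.36 ± 0.10), and 1 rose, Shmt1 (1.24 ± 0.16), the cytosolic counterpart of Shmt2. Of the E2F and Rb genes 6 rose and 5 fell, with E2f8 (0.49 ± 0.08) and Rbl1 (0.37 ± 0.07), the pocket protein p107, higher and Tfdp2 (-1.24 ± 0.14) and E2f4 (-0.77 ± 0.12) lower. Among G1 regulators Cdkn2d (1.84 ± 0.17) and Ccnd3 (0.98 ± 0.13) rose, and Ccnd1 (-1.51 ± 0.40) fell, a call lost with no filter on low counts (adjusted p = 0.0521).

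Part of the nucleotide synthesis list was also higher in the other genotypes than in WT. In Asxl1-/-Jak2V617F against WT 9 of its 18 genes rose and 0 fell, against 8.3% of all genes that rose and 6.76% that fell, and the number was 4 without WT 2. The rises were led by Shmt2 (0.86 ± 0.13, adjusted p = 0.00683), Dctpp1 (0.55 ± 0.10), which removes noncanonical dCTP, and Atic (0.54 ± 0.10). In Asxl1-/- against WT 10 rose and 0 fell, against 11.3% of all genes that rose and 11.2% that fell. The number was 0 without Asxl1-/- 1, 4 without Asxl1-/- 2 or without WT 2, 6 without WT 3, 3 with library totals alone and 1 with Y-linked reads as a term. The rises were led by Dctpp1 (0.61 ± 0.11, adjusted p = 0.0042; adjusted p = 0.0604 without Asxl1-/- 1) and Atic (0.55 ± 0.11; adjusted p = 0.0808 without Asxl1-/- 1). The other lists in these comparisons had at most 5 genes past the test in a direction. Of the mitosis genes in Asxl1-/- against WT 5 rose and 4 fell, and the falls included the proliferation marker Mki67 (-0.74 ± 0.10, adjusted p = 0.00184), and the kinetochore genes Cenpe (-0.80 ± 0.12) and Cenpf (-1.04 ± 0.16; adjusted p = 0.0534 without Asxl1-/- 1).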

How the data were processed

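RNA-seq counts of 11 libraries of c-kit+ bone marrow cells in 4 genotype groups were analysed. The other 10 samples of the series, of chromatin, were not analysed here. The deposited table holds raw read counts per Ensembl gene, 1 column per library and not normalized. Per the submitters' processing notes, the tools included HISAT2 2.0.5, featureCounts 1.5.0-p3, DESeq2 1.16.1 and the mm10 genome, with no roles stated. How multi-mapped reads and strand were handled is not given in the sources used here.

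Genes were filtered with filterByExpr by group (16262 kept), TMM-scaled, and analysed in R 4.3.3 with the robust quasi-likelihood test of edgeR 4.0.16, in which all 11 libraries shared 1 fit with genotype as the factor. The common biological coefficient of variation was 19.7%. The p-values were adjusted by Benjamini-Hochberg across every tested gene, and 0.05 was the threshold. Standard errors are the absolute log2 fold change over the square root of the F statistic. Pairs of replicates had a chi-square of 7.75 to 33.1 per degree of freedom between their counts, far above sampling noise, and each library counted as 1 sample. Alternatives were other scalings, filters, DESeq2 1.42.0, a term for Y-linked reads (at least 10 CPM), a replicate block, a fit of the compared groups alone and leaving out each library. The test was checked on simulated counts with known changes in a small set of genes of a single genotype. That check does not cover scaling where as many genes differ as in these data.

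The members and gene lists were chosen with earlier results of these data known. Values per library are given for the 2 members of each role group with the smallest p in the interaction or in Jak2V617F against WT, and for up to 6 called members with the smallest adjusted p in Asxl1-/-Jak2V617F against Jak2V617F. Of each other list up to 4 genes with the smallest adjusted p are named. Promoters are from RefSeq, GRCm38.p6, and gene coordinates are those of the deposited table.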

Additional observations from a re-analysis of the deposited data

Results flagged for a closer look

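For 16 members the effect of Asxl1 loss differed between the Jak2V617F and WT backgrounds by edgeR's quasi-likelihood test of the interaction, which is a test of the difference itself. Values are the log2 effect on the Jak2V617F background minus that on the WT background, with its standard error and the Benjamini-Hochberg adjusted p over all genes. Of all genes tested 41.6% passed this test.

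The 6 members that kept the call whichever of the 11 libraries was left out were Pold2 at -0.91 ± 0.17 (adjusted p = 0.00157), Rfc1 at 0.46 ± 0.09 (adjusted p = 0.00306), Rfc4 at -0.68 ± 0.16 (adjusted p = 0.005), Cdc6 at -0.64 ± 0.15 (adjusted p = 0.00529), Mcm2 at -0.53 ± 0.13 (adjusted p = 0.00774) and Pola2 at -0.49 ± 0.13 (adjusted p = 0.00966). With Y-linked reads as a term Pold2 and Rfc4 still passed, whereas Rfc1 (0.31, adjusted p = 0.179), Cdc6 (-0.71, adjusted p = 0.0721), Mcm2 (-0.64, adjusted p = 0.0731) and Pola2 (-0.65, adjusted p = 0.0514) did not. That term was estimated from Jak2V617F 2 against the other Jak2V617F libraries alone, so outcomes with it rest on a single library. Counts of Rfc4 are uncertain, since it overlaps Eif4a2, whose counts were 584% of its own. Rfc1, the large clamp loader subunit, was the only one of the 6 above 0. Rfc1 stood at 0.35 ± 0.06 in Asxl1-/-Jak2V617F against Jak2V617F and -0.11 ± 0.07 in Asxl1-/- against WT, whereas Pold2 stood at -0.35 ± 0.11 in Asxl1-/-Jak2V617F against Jak2V617F and 0.56 ± 0.12 in Asxl1-/- against WT.

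The other 10 lost the call when some library was left out, and the highest adjusted p is given after each. For licensing they were Mcm4 at -0.45 ± 0.12 (adjusted p = 0.0112) with 0.0543, Cdt1 at -0.71 ± 0.21 (adjusted p = 0.0203) with 0.0688, Mcm5 at -0.40 ± 0.13 (adjusted p = 0.0291) with 0.116, Orc1 at -0.72 ± 0.25 (adjusted p = 0.0343) with 0.0997 and Mcm7 at -0.37 ± 0.13 (adjusted p = 0.0412) with 0.134. The remaining 5 were Rrm1 at -0.49 ± 0.13 (adjusted p = 0.0117) with 0.0528, Rpa2 at -0.44 ± 0.12 (adjusted p = 0.0129) with 0.0545, Prim2 at -0.56 ± 0.16 (adjusted p = 0.0157) with 0.0545, Ccne1 at -1.18 ± 0.35 (adjusted p = 0.0235) with 0.0837 and Gins4 at -0.37 ± 0.12 (adjusted p = 0.0236) with 0.0873. For each of the 10, 1 or both of the Asxl1-/- libraries were among those whose absence ended the call. With Y-linked reads as a term, Rpa2 and Prim2 of these 10 still passed and the others did not. The weakest were Ccne1 at -0.69 (adjusted p = 0.434), Orc1 at -0.71 (adjusted p = 0.259) and Mcm4 at -0.51 (adjusted p = 0.109). Both Asxl1-/- libraries carry Y-linked reads and no WT library does, so in the interaction the genotype and that difference cannot be told apart on the WT background.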

How the results depend on the processing

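No called member changed direction under any alternative. In Jak2V617F against WT 20 of 25 calls held in every other setting, and 20 of 25 with each library left out. In Asxl1-/-Jak2V617F against Jak2V617F 10 of 16 held in every other setting, and 9 of 16 with each library left out. In the interaction these numbers were 4 and 6 of 16, in Asxl1-/- against WT 0 and 0 of 4, and in Asxl1-/-Jak2V617F against WT 2 and 0 of 8.

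Counts of members that moved by more than 1.5 times were as follows. For Jak2V617F against WT the number lower was 1 under median-of-ratios scaling, upper-quartile scaling, no filter, a fit of the compared groups alone and DESeq2. For Asxl1-/-Jak2V617F against Jak2V617F the number lower was 19 with library totals and 20 with upper-quartile scaling, which also gave 2 higher. For Asxl1-/- against WT the number higher was 1 with library totals (and 1 lower), 2 with upper-quartile scaling, 0 with the term for Y-linked reads and 2 in a fit of the compared groups alone. For Asxl1-/-Jak2V617F against WT it was 2 with library totals and with upper-quartile scaling, 5 with no filter, 3 in a fit of the compared groups alone and 14 with DESeq2. For Asxl1-/-Jak2V617F against Asxl1-/- it was 3 with library totals, and 1 with median-of-ratios scaling, upper-quartile scaling, the stricter filter (a CPM of 1 in 3 libraries) and DESeq2. In the interaction the term for Y-linked reads gave 0 higher and 5 lower. The causes of these moves were not tested.

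With 1 library left out, the number of members higher and lower was 3 to 4 and 6 to 13 for Asxl1-/-Jak2V617F against Jak2V617F, 19 to 27 and 1 to 2 for Jak2V617F against WT, 0 to 15 and 0 for Asxl1-/- against WT, 0 to 20 and 0 for Asxl1-/-Jak2V617F against WT, 0 and 0 for Asxl1-/-Jak2V617F against Asxl1-/-, and 1 and 6 to 17 for the interaction. Where this left Asxl1-/- with 1 library, that library was assumed to vary like the other groups.

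Libraries of different genotypes share replicate numbers. Deviations from group means correlated at -0.199 to 0.174 over 15 same-numbered pairs and at -0.230 to 0.242 over 30 others. Deviations cancel out within a genotype, which ties these correlations to each other, so they cannot exclude pairing. The numbers were not taken as pairs in the main fit. With the number as a replicate block the counts higher and lower were 4 and 13 for Asxl1-/-Jak2V617F against Jak2V617F, 23 and 2 for Jak2V617F against WT, 5 and 0 for Asxl1-/- against WT, 8 and 0 for Asxl1-/-Jak2V617F against WT, 0 and 0 for Asxl1-/-Jak2V617F against Asxl1-/-, and 1 and 16 for the interaction.

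Depth limited little, since the lowest member count was 338. The 2 Asxl1-/- libraries limit every comparison with that group.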
